A study of Mus musculus with 29 samples.

Results

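The Cyp4a genes encode cytochromes P450 that hydroxylate fatty acids, and 6 of them were followed here in mouse liver: Cyp4a10, Cyp4a14, Cyp4a31, Cyp4a32, Cyp4a12a and Cyp4a12b. They were picked by name, as 6 of the 55421 genes in the read counts, with their values in these mice already known, so their levels and differences are given as a description without p-values. The study used HDM201, an inhibitor that frees p53 from MDM2, to ask if active p53 lowers the senescence-associated secretory phenotype of aged mice, and whole liver was profiled by bulk RNA-seq of polyA RNA. Old mice were C57BL/6J, with labelled ages of 20 months (females) and 24 months (males), and received HDM201 at 10 mg/kg or methylcellulose vehicle by daily gavage for 14 days. Young mice, labelled as 5 months old, were C57BL/6N and received vehicle only. Age and substrain therefore cannot be told apart, and old females and old males also differed in age. Counts were analysed for 5 young vehicle, 4 old vehicle and 5 old HDM201 females, and for 4 young vehicle, 4 old vehicle and 5 old HDM201 males. Each library came from 1 mouse. Food was freely available, and mice were killed in the morning.

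Cyp4a enzymes sit in the endoplasmic reticulum and add a hydroxyl group to the last (omega) carbon of medium- and long-chain fatty acids, the first step of omega-oxidation. The products are oxidised further to dicarboxylic acids, which peroxisomes shorten. In rodent liver Cyp4a10 and Cyp4a14 are classical targets of PPARA, the nuclear receptor that senses fatty acids and that fasting and fibrate drugs activate together with its partner RXR. Cyp4a12a and Cyp4a12b are known as male-specific genes that depend on androgen and on the male pattern of growth hormone secretion, and Cyp4a12a makes 20-HETE from arachidonic acid.

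All 6 genes lie in one cluster on chromosome 4 (GRCm38, the assembly named mm10). Cyp4a12a (ENSMUSG00000066071.6) spans 115299046 to 115332815 and Cyp4a12b (ENSMUSG00000078597.2) spans 115411624 to 115439034. They are followed by Cyp4a14 (ENSMUSG00000028715.2, 115486200 to 115496142, minus strand) and Cyp4a10 (ENSMUSG00000066072.13, 115518264 to 115533649). Cyp4a31 (ENSMUSG00000028712.12) spans 115563649 to 115579015 and Cyp4a32 (ENSMUSG00000063929.6) spans 115600969 to 115621602, both on the plus strand like the remaining members.

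Several of these genes are near copies of each other, which limits how reads can be assigned. The coding sequences of Cyp4a12a and Cyp4a12b were identical at 98.5% of 1527 aligned bases, with 23 mismatches and one identical run of 342 bases. Cyp4a10 shared 97.2% of its coding bases with Cyp4a32 and 96.6% with Cyp4a31, whereas Cyp4a14 shared 75.8 to 76.8% with any other member. The exon sequences below are 60-base coding stretches chosen for positions at which the closest copies are not all the same. Capitals mark these positions. The first 3 stretches lie in exon 2 of each gene and have 9 such positions. Most of the 9 set Cyp4a32 apart from both Cyp4a10 and Cyp4a31. Cyp4a10 and Cyp4a31 differ from each other only at the G or A near the middle and at the last base. A read over this stretch therefore has few positions that separate Cyp4a10 from Cyp4a31. The last pair lies in exon 6 and differs at 4.
Cyp4a10, chr4:115519640-115519699, plus strand: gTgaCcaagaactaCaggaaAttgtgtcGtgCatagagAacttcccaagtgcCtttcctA
Cyp4a31, chr4:115565020-115565079, plus strand: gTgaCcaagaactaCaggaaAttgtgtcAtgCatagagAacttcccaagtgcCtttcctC
Cyp4a32, chr4:115602270-115602329, plus strand: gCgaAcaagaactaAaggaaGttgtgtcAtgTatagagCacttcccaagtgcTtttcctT
Cyp4a12a, chr4:115326628-115326687, plus strand: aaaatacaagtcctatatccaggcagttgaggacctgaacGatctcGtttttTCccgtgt
Cyp4a12b, chr4:115432881-115432940, plus strand: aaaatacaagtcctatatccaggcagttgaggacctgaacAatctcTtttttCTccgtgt

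Of all 50-base stretches of the coding transcript, 99.8% were unique to its gene for Cyp4a14. The share was 78.3% for Cyp4a31, 69.5% for Cyp4a10, 53.2% for Cyp4a32, 51.1% for Cyp4a12a and 50.6% for Cyp4a12b. At 100 bases it reached 87.3% for Cyp4a10, 79.9% for Cyp4a32 and 64.2% for Cyp4a12a, and no stretch of Cyp4a14 was shared. Read length and the handling of reads with several matches were not given in the sources used here. Values of Cyp4a14 are therefore nearly free of shared sequence, while those of Cyp4a10, Cyp4a31 and Cyp4a32, and of Cyp4a12a and Cyp4a12b, may hold or lack reads of a neighbour. Stretches of Cyp4a31 were shared with 561 other genes at 50 bases, 45 at 75 bases and 2 at 100 bases. Its values may therefore also hold or lack reads of genes outside the cluster. The annotated transcript of Cyp4a32 held 0 untranslated bases, so reads from its untranslated ends could not be counted to it.

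Each mouse had 16485900 to 23570458 reads on genes. Levels are given as CPM, counts scaled to a common library total, with library sizes normalised by TMM. Xist was at 273 CPM or more in every female and at 0.317 CPM or less in every male. Nnt, part of which is deleted in C57BL/6J, had mean CPM of 3.33 in young females and 3.01 in young males against 2.61 and 1.98 in old vehicle mice, and did not pass the edgeR test in females (FDR 0.232) or in males (FDR 0.159). The 5 hepatocyte markers found in the counts, Alb among them, summed to 77535 to 161595 CPM. Kidney also expresses Cyp4a genes, and 9 kidney markers summed to 0.348 CPM or less in every mouse, 3 of them at 0 throughout.

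Cyp4a10, a PPARA-inducible omega-hydroxylase, was high in females and reached its highest level with HDM201. Young vehicle females 1 to 5 had 182, 143, 135, 235 and 92.9 CPM. Old vehicle females 1 to 4 had 169, 167, 165 and 149 CPM, a narrow range inside that of the young females. With HDM201, old females 1 to 5 had 277, 254, 260, 306 and 263 CPM, and all 5 lay above every vehicle-treated female of either age. Young vehicle males 1 to 4 had 157, 104, 67.6 and 37.7 CPM. Old vehicle males 2 to 5 had 35.1, 21, 32.7 and 16.3 CPM, each below young males 1 to 4. HDM201-treated males 1 to 5 had 81.1, 116, 45.9, 6.35 and 22.3 CPM, which straddled the old vehicle males, with 3 mice above all of them and 1 below.

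Relative to old vehicle females, Cyp4a10 was 0.73 higher on the log2 scale with HDM201 (SE 0.0755), from 162 ± 9.29 (SD, n = 4) to 272 ± 20.9 CPM (SD, n = 5). With each mouse left out in turn this difference stayed between 0.68 and 0.75. In males the same comparison gave 1.05 with an SE of 0.63, from 26.3 ± 9.02 (SD, n = 4) to 54.3 ± 44.4 CPM (SD, n = 5), and it was 0.57 without HDM201-treated male 2. The difference between old and young was 0.07 (SE 0.198) in vehicle females and -1.78 (SE 0.401) in vehicle males. In females its sign turned without young female 5, to -0.07, and it was 0.24 without young female 4. In old vehicle mice Cyp4a10 was 2.63 higher in females than in males on the log2 scale (SE 0.22), compared with 0.78 (SE 0.353) in young mice, where it was 1.17 without young male 1.

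Cyp4a14, the other PPARA-inducible member and the only one with almost no shared sequence, had the highest mean CPM in both groups of old females. In HDM201-treated female 1 alone of the old females it was below Cyp4a10, at 223 against 277 CPM. Young vehicle females 1 to 5 had 173, 172, 136, 298 and 110 CPM. Old vehicle females 1 to 4 had 369, 411, 408 and 272 CPM, and old mouse 4 alone was below the highest young female. In HDM201-treated females the values were 223, 506, 553, 594 and 615 CPM, so that mouse 1 was below every old vehicle female and the other 4 mice were above all of them. Young vehicle males 1 to 4 had 219, 122, 118 and 49.8 CPM. Old vehicle males 2 to 5 had 94.1, 21.2, 48.6 and 8.92 CPM, and mouse 2 overlapped the young males. HDM201-treated males 1 to 5 had 61.4, 132, 68.8, 14.8 and 59.0 CPM, overlapping both other male groups.

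The log2 difference of Cyp4a14 with HDM201 was 0.43 (SE 0.242) in old females and 0.64 (SE 0.651) in old males. Without HDM201-treated female 1 the female value was 0.62, and the male value moved from 0.24 without HDM201-treated male 2 to 1.36 without old vehicle male 2. Between old and young vehicle mice Cyp4a14 was 1.06 higher in females (SE 0.232) and differed by -1.54 in males (SE 0.636). Females exceeded males by 3.08 on the log2 scale in old vehicle mice (SE 0.585) and by 0.48 in young ones (SE 0.36), the latter from 0.21 without young male 4 to 0.87 without young male 1. In old vehicle mice all 4 females were above all 4 males, and in young mice the sexes overlapped.

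**Figure D1:**
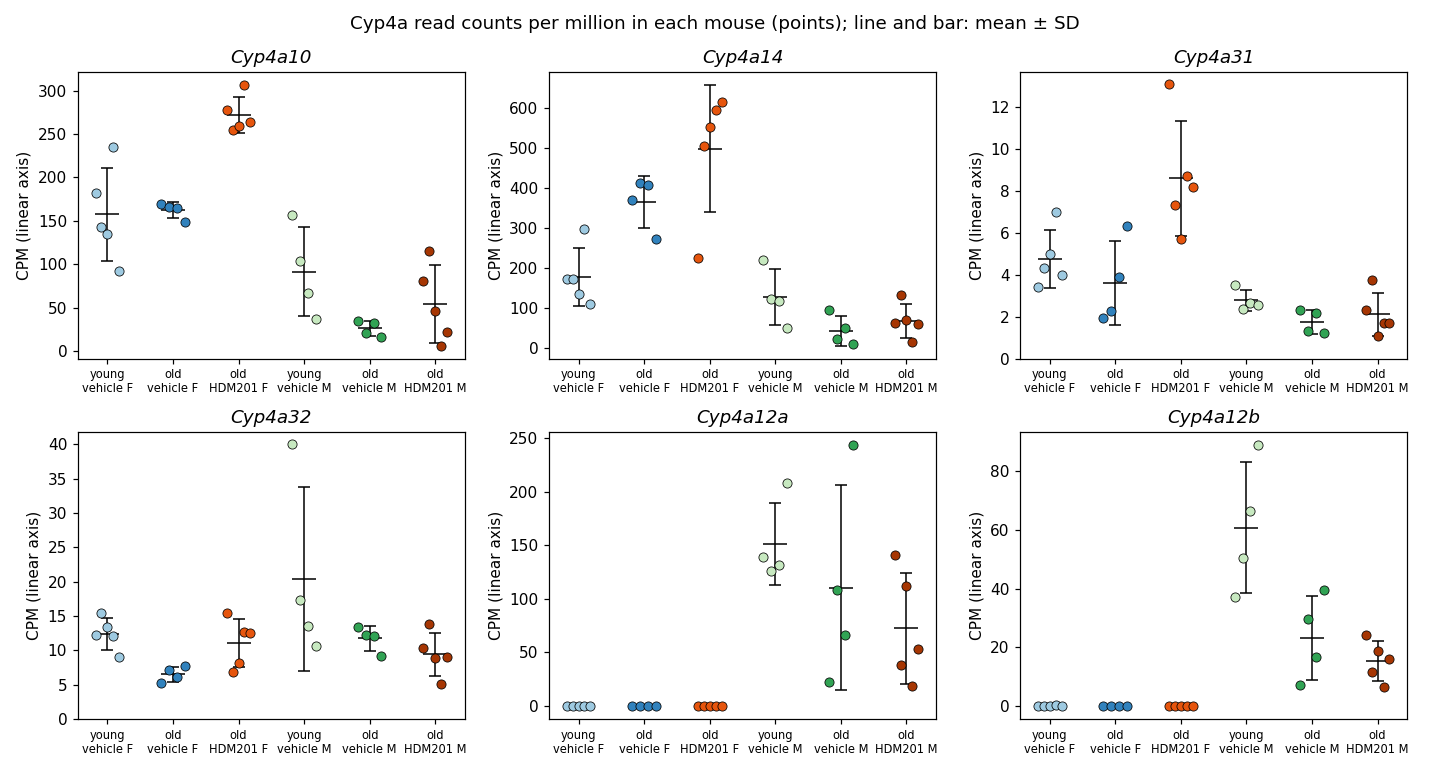
CPM of each member on a linear axis, with 1 point per mouse and the mean ± SD of each of the 6 groups (F females, M males). The 5 HDM201-treated females lie above all other females for Cyp4a10, 1 HDM201-treated female at 223 CPM stands below the others for Cyp4a14, and Cyp4a12a and Cyp4a12b are near 0 in every female.

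The ratio of Cyp4a14 to Cyp4a10 counts within a mouse separated young vehicle from old vehicle females. It was 0.947 to 1.27 in young vehicle females and 1.83 to 2.48 in old vehicle females, with no overlap. In HDM201-treated females it was 0.806 in mouse 1 and between 1.94 and 2.33 in mice 2 to 5. The mean ratio was 1.41 ± 0.242 (SD, n = 4) in young males, 1.43 ± 0.919 (SD, n = 4) in old vehicle males and 1.67 ± 0.793 (SD, n = 5) in HDM201-treated males, with wide overlap. Counts of 1 mouse share a library, so a ratio is free of differences in depth.

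Cyp4a31, a near copy of Cyp4a10 with few reads, also had its highest mean in HDM201-treated females. Their values were 13.1, 7.33, 5.74, 8.73 and 8.22 CPM. Old vehicle females had 1.95, 2.27, 3.93 and 6.33 CPM, and mouse 4 overlapped the treated mice. Young vehicle females had 3.40, 4.36, 4.99, 7.01 and 4.02 CPM. These levels rest on few reads, between 37 and 251 counts per female and between 19 and 70 per male. Males had 2.40 to 3.50 CPM when young, 1.22 to 2.35 CPM in the old vehicle group and 1.10 to 3.75 CPM with HDM201. Every old vehicle male with counts was below every young male with counts, by a margin from 2.35 to 2.40 CPM.

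With HDM201, Cyp4a31 was 1.23 higher on the log2 scale in females (SE 0.329), and the difference in males was 0.26 (SE 0.356). The male value turned to -0.04 without HDM201-treated male 2 and was 0.43 without old vehicle male 2. Old and young vehicle mice differed by -0.37 in females (SE 0.317) and by -0.64 in males (SE 0.27). Females exceeded males by 0.76 (SE 0.22) among young and by 1.03 (SE 0.395) among old vehicle mice. Without old vehicle female 4 the difference with age in females was -0.79 and that between old females and males 0.61, and without old vehicle female 1 the former was -0.16. On log2(FPKM + 1) of the same mice the difference with age in females had the opposite sign, 0.44.

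Cyp4a32, whose coding sequence is closest to that of Cyp4a10, had its lowest mean in old vehicle females. Young vehicle females had 12.2, 15.4, 13.4, 12 and 8.97 CPM and old vehicle females 5.27, 7.08, 6.08 and 7.73 CPM, without overlap. HDM201-treated females had 15.4, 6.89, 8.19, 12.6 and 12.4 CPM, of which mouse 2 was within the old vehicle range. Young males had 40.0, 17.3, 13.5 and 10.6 CPM, a spread that mouse 1 set. The values were 13.4, 12.2, 12.1 and 9.23 CPM in old vehicle males 2 to 5 and 10.3, 13.8, 8.88, 5.07 and 8.97 CPM in HDM201-treated males 1 to 5.

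The log2 difference of Cyp4a32 between old and young vehicle mice was -0.90 (SE 0.161) in females and -0.77 (SE 0.362) in males. Without young male 1 the male value was -0.22. HDM201-treated and old vehicle mice differed by 0.74 (SE 0.222) in females and -0.31 (SE 0.23) in males, and the latter was -0.16 without HDM201-treated male 4. Unlike Cyp4a10, Cyp4a14 and Cyp4a31, Cyp4a32 was lower in females than in males, by -0.71 (SE 0.321) in young mice and -0.84 (SE 0.158) in old vehicle mice. The difference in young mice also rested on young male 1, without which it was -0.16. When the counts of the 3 near copies Cyp4a10, Cyp4a31 and Cyp4a32 were summed, the sum followed Cyp4a10. It differed by 0.005 with age in females and was 2.12 higher in old vehicle females than males. Old vehicle females had 13102 counts of Cyp4a10, 294 of Cyp4a31 and 534 of Cyp4a32, so the sum gives no information on Cyp4a32 itself.

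Cyp4a12a and Cyp4a12b were expressed in males and almost absent from females. Over the 14 females Cyp4a12a reached 0.287 CPM at most and Cyp4a12b 0.172 CPM at most. Over the 5 young females Cyp4a12a had 10 counts, against 11551 counts over the 4 young males, a ratio of 1433 at equal depth (95% exact interval 779 to 2988). In old vehicle mice the counts were 2 in females and 8059 in males, a ratio of 4481 (1240 to 37010). For Cyp4a12b the young females had 5 counts and the young males 4678, a ratio of 1160 (497 to 3576). Old vehicle females had 0 counts of Cyp4a12b against 1678 in old vehicle males, a ratio of 622 if a floor of 3 counts is set for the female group. The 95% exact interval of the kind given for the other ratios starts at 505 here. With HDM201 the females again had 0 counts of Cyp4a12b and 1 count of Cyp4a12a over 5 mice. These intervals and the floor cover counting error only.

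Among males the pair varied several-fold from mouse to mouse. Young males 1 to 4 had 140, 126, 132 and 209 CPM of Cyp4a12a. Old vehicle males 2 to 5 had 22.3, 109, 66.7 and 244 CPM, so the old group held both the lowest and the highest of these vehicle-treated mice. HDM201-treated males 1 to 5 had 141, 37.9, 112, 18.9 and 53.0 CPM, overlapping both. For Cyp4a12b the young males had 37.1, 50.3, 66.5 and 88.8 CPM. The old vehicle males had 7.09, 29.5, 16.6 and 39.4 CPM, with mouse 5 above the lowest young male. HDM201-treated males had 24.1, 11.5, 18.6, 6.56 and 16 CPM, all below young males 1 to 4 and inside or just under the range of the old vehicle males.

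Between old and young vehicle males Cyp4a12a differed by -0.45 on the log2 scale (SE 0.539) and Cyp4a12b by -1.38 (SE 0.445). Leaving out old vehicle male 5, the highest mouse, gave -1.18 for Cyp4a12a, and leaving out male 2, the lowest, gave -0.11. With HDM201 the differences were -0.59 (SE 0.657) for Cyp4a12a, which was -0.99 without HDM201-treated male 1, and -0.58 (SE 0.451) for Cyp4a12b, and without old vehicle male 5 they became 0.14 and -0.20. Without old vehicle male 2 the latter was -0.89. The ratio of Cyp4a12b to Cyp4a12a counts averaged 0.399 ± 0.0992 for young males (SD, n = 4), 0.250 ± 0.0654 for old vehicle males (SD, n = 4) and 0.258 ± 0.0834 for HDM201-treated males (SD, n = 5). The individual ratios ran from 0.266 to 0.505 in young and from 0.162 to 0.318 in old vehicle males and overlapped.

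The labels name a further 2 males for which only FPKM values, scaled by transcript length and library size, were used here. Young vehicle male 5 had 1.97 FPKM of Cyp4a12a, where the other young males had 53.6 to 90.1. Its Cyp4a10 was 4.26 FPKM against 18.2 to 65.6, and its Cyp4a14 was 1.93 FPKM against 17.3 to 70.9. This mouse was thus the lowest young male for all 3 genes. For Cyp4a10 and Cyp4a14 it was also below every old vehicle male, at 6.80 to 16.3 and 3.11 to 33.2 FPKM. Old vehicle male 1 had 177 FPKM of Cyp4a12a, above the 9.83 to 98.9 of the other old vehicle males, and 12.4 FPKM of Cyp4a10, within their range. With both mice included, mean Cyp4a10 was 33.3 FPKM in young and 11.9 FPKM in old vehicle males. Mean Cyp4a14 was then 34.4 and 14.6 FPKM. The difference in Cyp4a12b between old and young males on log2(FPKM + 1) was -0.02 with both mice. Without them it was -1.29, and for Cyp4a12a it was 0.49 with both mice and -0.86 without them. The methods state that 1 young male with an open wound and a suspected infection was excluded, without naming it.

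Levels per kilobase of annotated exon allow members to be ranked against each other. In old vehicle females the order was Cyp4a14 at 140 ± 25 CPM per kilobase, Cyp4a10 at 77 ± 4.41, Cyp4a32 at 4.26 ± 0.707 and Cyp4a31 at 1.44 ± 0.798 (SD, n = 4), with no overlap between neighbours. In young females Cyp4a10 at 74.7 ± 25.4 and Cyp4a14 at 68.3 ± 27.7 CPM per kilobase (SD, n = 5) lay within each other's spread. Young males had Cyp4a12a first, at 62.6 ± 15.9 CPM per kilobase (SD, n = 4), followed by Cyp4a14 at 48.9 ± 26.7, Cyp4a10 at 43.4 ± 24.3 and Cyp4a12b at 25.3 ± 9.30, and the spreads of these neighbours overlapped. Cyp4a12a was also first in old vehicle males, at 45.6 ± 39.5 CPM per kilobase (SD, n = 4), ahead of Cyp4a14 at 16.6 ± 14.5 and Cyp4a10 at 12.5 ± 4.28, again with overlapping spreads. The value of Cyp4a32 per kilobase rests on coding exons alone.

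Summed over the 6 members, mean CPM was 353 ± 125 in young females (SD, n = 5), 537 ± 71.1 in old vehicle females (SD, n = 4) and 790 ± 157 in HDM201-treated females (SD, n = 5). In males the young mice averaged 454 CPM (SD 95, n = 4), the old vehicle mice 217 ± 68.7 (SD, n = 4) and the HDM201-treated mice 221 ± 114 (SD, n = 5). All 4 old vehicle males, at 174 to 319 CPM, were below the 4 young males, at 398 to 596 CPM. The same old vehicle mice enter the comparisons with age and with HDM201, so the values of these comparisons are not independent.

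**Figure D2:**
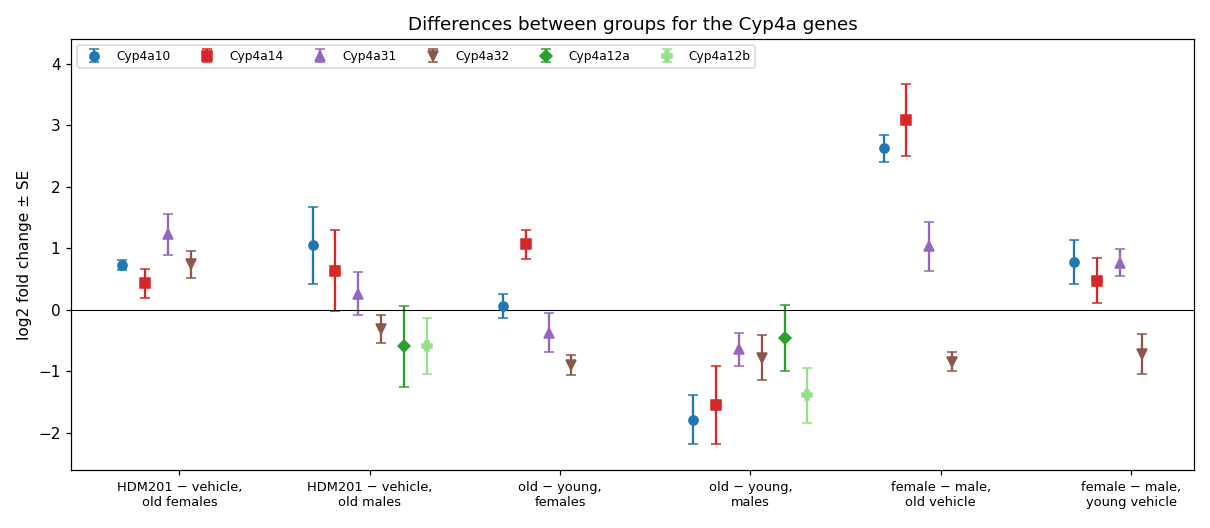
Log2 fold change of each member (symbols) with its SE (bars) in 6 comparisons of 2 groups, first group minus second. Cyp4a12a and Cyp4a12b are not drawn for female comparisons, where they were too low to be tested, or for differences between the sexes, where the fitted value depends on the counts near 0. Cyp4a10 and Cyp4a14 lie above 0 with HDM201 in females, below 0 with age in males and far above 0 for old females against old males. With HDM201 in males both points are above 0 with wide bars, and the bar of Cyp4a14 crosses 0.

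Against the background of all genes, members past the edgeR threshold (FDR under 0.05) were counted for each comparison, from which nothing is read because the CPM of these groups chose the genes. With HDM201 the count was 1 of 4 members tested in females, Cyp4a10, where 5.25% of 14445 genes were called, and 0 of 6 in males, where 0.00709% of 14109 genes were called. In males 1710 genes had an unadjusted p under 0.05 and DESeq2 called 171 genes. With age it was 2 of 4 in females (Cyp4a14 and Cyp4a32), where 31.8% of genes were called, and 1 of 6 in males (Cyp4a10), where 3.69% were called. Between the sexes it was 3 of 6 in young mice (Cyp4a12a, Cyp4a12b and Cyp4a31), where 10.5% were called, and 5 of 6 in old vehicle mice, all but Cyp4a31, where 18% were called. Cyp4a12a and Cyp4a12b passed the count filter between the sexes through the males alone, so their calls there were fixed in advance. Among all genes tested, CPM of the compared groups was free of overlap for 10.2% with HDM201 in females and 4.03% in males. It was so for 25.9% with age in females, 13.7% with age in males, 12.8% between young females and males and 23.1% between old vehicle females and males.

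Ppara and Rxra, the genes of the receptor and its partner, did not pass the test in any of the 6 comparisons. Ppara had mean CPM of 49.6 in old vehicle and 70.9 in HDM201-treated females, with a log2 difference of 0.50 (SE 0.195, edgeR FDR 0.152). Its differences were -0.29 with HDM201 in males (edgeR FDR 0.469), -0.17 with age in females (edgeR FDR 0.536) and -0.15 with age in males (edgeR FDR 0.708). Rxra had log2 differences between -0.27 and 0.14 over the same comparisons. Of the 8 genes of PPARA and its partners, 1 fell with HDM201 in females, where 2.9% of all genes fell. It was Ppard, a related receptor, with a log2 fold change of -1.26 (edgeR FDR 0.0401). With age in females Ppard, Pparg and Ncor1 rose and Ppargc1a, a coactivator, fell, with edgeR FDR between 0.0013 and 0.0175. Over all genes 16.8% rose and 15% fell there. In old vehicle mice Ppard was higher in females by 1.75 (edgeR FDR 0.00585), where 8.4% of all genes were higher. None of the 8 passed with HDM201 or age in males or between young females and males. There 2, 2 and 1 of them had an unadjusted p under 0.05.

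Other target genes of PPARA, which serve fatty acid oxidation, transport and ketone body formation, were taken as a list of 28 genes that holds none of the Cyp4a genes. With HDM201 in females 4 rose and 0 fell, where 2.35% of all genes tested rose and 2.9% fell. In the same comparison 21 of 28 had a log2 difference above 0 compared with 50.2% of all genes tested, and the list's median was 0.27 beside 0.001 for all genes. Cpt1a, the carnitine transferase that admits fatty acids to mitochondria, rose by 0.70 (edgeR FDR 0.0198), and Hadhb, a subunit of the mitochondrial trifunctional enzyme, by 0.33 (edgeR FDR 0.0309). Without old vehicle female 2 none of the 28 passed, and DESeq2 called 8. With HDM201 in males 0 rose and 0 fell, where 0% of all genes rose and 0.00709% fell. There 10 of 28 were above 0, the median was -0.05 beside 0.01 for all genes, 4 of the 28 had an unadjusted p under 0.05 and DESeq2 called 1.

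Old vehicle females compared with young ones had 9 PPARA targets that rose and 2 that fell, where 16.8% of all genes rose and 15% fell, with a median of 0.10 beside 0.01. Cd36, a fatty acid transporter, rose by 2.00 (edgeR FDR 2.21e-06) and Crat, carnitine acetyltransferase, by 0.97 (edgeR FDR 0.000282), while Cpt1a differed by -0.57 (edgeR FDR 0.00335) and Hadhb by -0.21 (edgeR FDR 0.0446). With age in males 0 rose and 2 fell, where 2.76% of all genes rose and 0.931% fell, and the median was -0.19 beside -0.02. Plin5, a lipid droplet protein, fell by 1.32 (edgeR FDR 0.0201) and Cpt2, the inner mitochondrial carnitine transferase, by 0.52 (edgeR FDR 0.0362). Without old vehicle male 4 neither passed. In old vehicle mice 13 targets were higher in females and 1 was lower, where 8.4% of all genes were higher and 9.6% lower, with a median of 0.36. Those with the smallest FDR were Acot2 and Acot3, acyl-CoA thioesterases, at 2.25 (edgeR FDR 8.86e-05) and 3.57 (edgeR FDR 0.000612). Between young females and males 1 was higher, Ehhadh of peroxisomal oxidation (0.69, edgeR FDR 0.00865), and 1 was lower, Cpt2 (-0.39, edgeR FDR 0.0113), where 5.63% of all genes were higher and 4.91% lower in females.

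**Figure D3:**
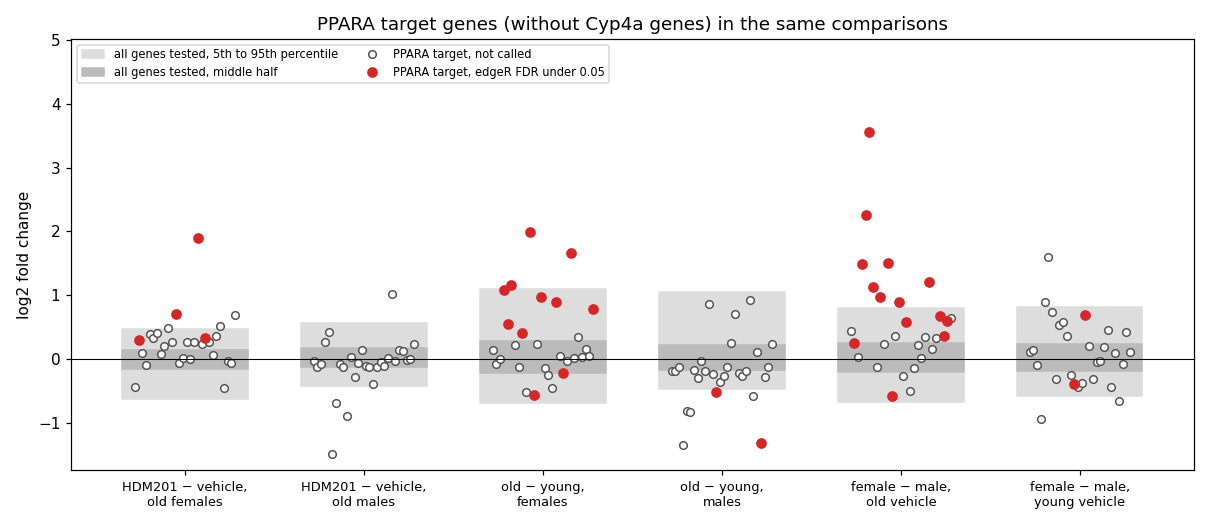
Log2 fold change of each of 28 PPARA target genes (circles, red where the edgeR FDR was under 0.05) in the same 6 comparisons, first group minus second. Dark grey bands hold the middle and light grey bands the 5th to 95th percentile of all genes tested. In females 4 targets rose with HDM201 and in males 0 passed, and 13 targets were higher in old vehicle females than in old vehicle males.

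Genes of the same route were counted next. A list of 9 omega-oxidation partners was used, most of which pass electrons to P450 enzymes or oxidise their products. Of the 9, 0 passed the edgeR test with HDM201 in either sex or with age in males. In each of these comparisons 1 had an unadjusted p under 0.05. Old vehicle females differed from young ones in 6 of them, of which 5 were lower and 1 was higher, where 15% of all genes were lower and 16.8% higher. Cyb5r3 (cytochrome b5 reductase) fell by 0.70 (edgeR FDR 0.00109) and Adh5, an alcohol dehydrogenase, by 0.40 (edgeR FDR 0.00221), and Aldh3a2, the fatty aldehyde dehydrogenase, which is also in the list of PPARA targets, rose by 0.41 (edgeR FDR 0.00425). In old vehicle mice Adh5, Adh4 and Cyb5r3 were lower and Aldh3a2 was higher in females, by 0.97 (edgeR FDR 0.0122). Over all genes 9.6% were lower and 8.4% higher in these females. Between young females and males 0 of the 9 passed, and 3 had an unadjusted p under 0.05.

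Other genes of the Cyp4 family include 2 more Cyp4a genes of the cluster. Cyp4a29 had 0 counts in every mouse and Cyp4a30b was at 0.0571 CPM or less, and Cyp4x1, Cyp4f37, Cyp4f39 and Cyp4f40 were too low to be tested. Cyp4b1, Cyp4f13, Cyp4f14, Cyp4f15, Cyp4f16, Cyp4f17, Cyp4f18 and Cyp4v3 had log2 differences between -0.38 and 0.12 with HDM201 in females and between -0.38 and 0.64 in males, and none of the 8 passed edgeR's test or had an unadjusted p under 0.05. With age in females Cyp4f18 rose by 2.12 (edgeR FDR 5.74e-05) and Cyp4f16 by 0.67 (edgeR FDR 0.00311), while Cyp4f15 fell by 0.34 (edgeR FDR 0.0131) and Cyp4f13 by 0.27 (edgeR FDR 0.0295). Over all genes 16.8% rose and 15% fell there. None of the 8 passed with age in males, where 2 had an unadjusted p under 0.05 and Cyp4f18 differed by 2.01 (edgeR FDR 0.0665). In young mice Cyp4f16 was higher in females (0.85, edgeR FDR 0.00767) and Cyp4f17 lower (-0.70, edgeR FDR 0.0212). In old vehicle mice Cyp4f13 was lower in females (-0.32, edgeR FDR 0.0368). Over all genes 5.63% were higher and 4.91% lower in young females, and 9.6% were lower in old vehicle females.

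Genes known for sexual dimorphism in liver were set beside the male-specific pair Cyp4a12a and Cyp4a12b. Of 10 male-biased genes, 9 were lower in young and 10 in old vehicle females than in males of the same group. Over all genes tested 4.91% and 9.6% were lower in these females. With age in males 1 of the 10 male-biased genes passed, where 2.76% of all genes rose. It was Mup20, a major urinary protein, which rose by 0.95 (edgeR FDR 0.0496), and the list's median was -0.05. With HDM201 in males 0 passed the edgeR test, 0 had an unadjusted p under 0.05, 2 were above 0 and the median was -0.41 beside 0.01 for all genes. In females 7 of the 9 male-biased genes tested fell with age, where 15% of all genes fell. A low gene of the list could pass the filter through the young mice alone. Among the 7 were Slco1a1, an organic anion transporter, at -4.28 (edgeR FDR 4.82e-06) and Cyp2d9 at -2.94 (edgeR FDR 5.07e-06). Of 10 female-biased genes, 10 were higher in young and 9 in old vehicle females, where 5.63% and 8.4% of all genes were higher. Both lists hold genes known for this bias, some of which passed the filter through 1 sex alone. Nothing is therefore read from their counts between the sexes. With age in females 5 of the 10 female-biased genes rose and 4 fell, where 16.8% of all genes rose and 15% fell. The female-biased genes thus moved both ways. In males 6 of the 10 were too low to be tested with age, and no count is read from the others, since low genes could pass the filter through the old mice alone. The P450 gene Cyp2b9 was at 0 to 4.77 CPM in young and 9.62 to 56.1 CPM in old vehicle males, and Cyp2b13 had 0 counts in the young and 0.573 to 6.43 CPM in the old vehicle males.

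In the list around growth hormone signalling, 1 gene passed with HDM201 in males: Cish, a feedback inhibitor that STAT5 induces, fell by 1.79 (edgeR FDR 0.035). It was the 1 gene called among the 14109 tested in this comparison, and without HDM201-treated male 1 no gene was called. Ghr, the growth hormone receptor gene, had log2 differences of -0.27 with HDM201 (edgeR FDR 0.356) and -0.01 with age (edgeR FDR 0.964) in males. Stat5b, the transducer of growth hormone, differed by 0.07 and 0.25 in the same comparisons, and Bcl6, a repressor of STAT5 targets, by 1.2 (edgeR FDR 0.421) and 0.79 (edgeR FDR 0.473). Stat5b was higher in old vehicle females than in old vehicle males (0.42, edgeR FDR 0.00914). In females Hnf4a, a hepatocyte transcription factor, fell with HDM201 by 0.27 (edgeR FDR 0.032), and Stat5a rose with age.

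Markers of feeding and of macrophages moved with some of these comparisons, and their part in the levels of the Cyp4a genes was not tested. Of 10 lipogenic genes of the fed state, 2 were above 0 with HDM201 in females (median -0.40) and in males (median -0.33), and 0 passed in either, with an unadjusted p under 0.05 for 3 and 5 of them. Old females had 5 of them lower than young females, among them Thrsp (-1.72, edgeR FDR 0.00193) and Me1 (-1.19, edgeR FDR 0.0152), and Pnpla3 rose. In this comparison 15% of all genes were lower and 16.8% higher. With age in males 1 of the 10, Pnpla3, rose (2.63, edgeR FDR 0.00577), where 2.76% of all genes rose. All 7 macrophage and Kupffer cell markers rose with age in females (median 1.18) and fell with HDM201 in females (median -1.11). Over all genes 16.8% rose and 2.9% fell in these 2 comparisons. The summed CPM of the 7 markers was 204 to 303 in young, 317 to 611 in old vehicle and 190 to 307 in HDM201-treated females. With age in males all 7 were above 0 (median 1.01) and 6 had an unadjusted p under 0.05, of which Cd68 alone passed the FDR threshold. Over all genes 2.76% rose there. With HDM201 in males 0 of the 7 passed or had an unadjusted p under 0.05, with summed CPM of 89.8 to 201 in young, 127 to 399 in old vehicle and 182 to 473 in HDM201-treated males. In RNA of whole liver, fewer cells of a type and less RNA per cell cannot be told apart. From flow cytometry, the paper reports that HDM201 reversed the build-up of liver macrophages with age.

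Across mice, 2 pairs of members varied together most closely. After the mean of each sex was removed, log2(CPM + 1) of Cyp4a10 and Cyp4a14 correlated at Pearson r = 0.83 and Spearman rho = 0.81 over 27 mice, with r = 0.74 in the 14 females and 0.87 in the 13 males. Cyp4a12a and Cyp4a12b had r = 0.90 in the 13 males, where they were expressed, and these near copies may exchange reads. Cyp4a12a and Cyp4a14 had r = -0.03 in males. Cyp4a10 and Cyp4a32 had r = 0.79 in males and 0.20 in females. The mice come from 6 groups, so these values include differences between groups as well as within them.

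**Figure D4:**
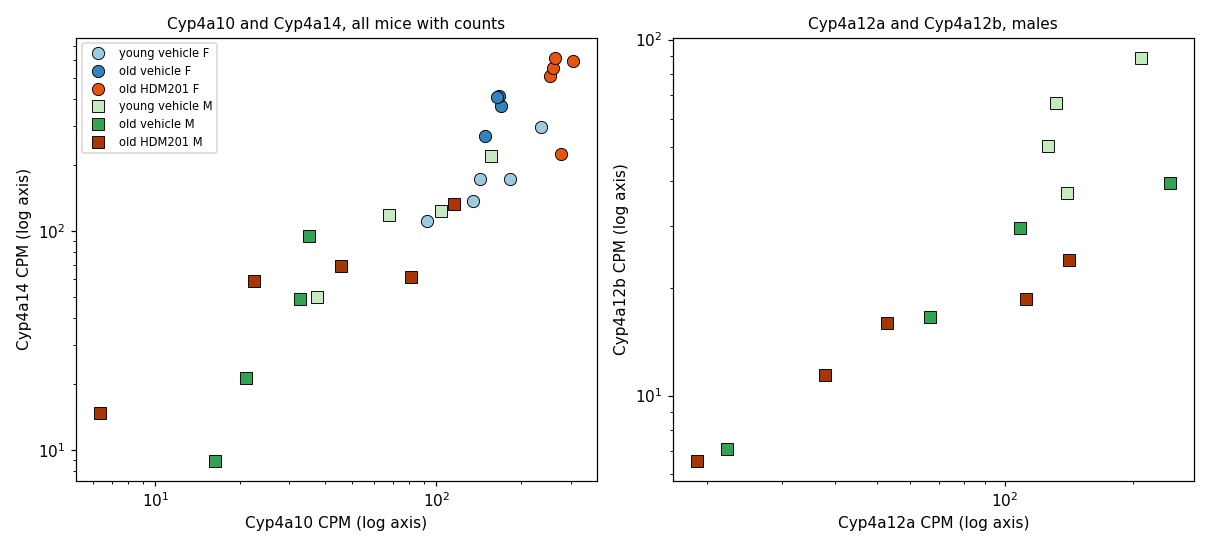
CPM of Cyp4a14 against Cyp4a10 in 27 mice (left, circles females and squares males) and of Cyp4a12b against Cyp4a12a in 13 males (right), on log axes with colours for the groups. On the left Cyp4a14 rises with Cyp4a10 with scatter on both sides, the HDM201-treated female with 223 CPM of Cyp4a14 lies below the other 4, and on the right 3 of 4 young males have more Cyp4a12b than any old male.

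Outside the cluster, the genes most like each member were sought among 12767 genes with a mean of at least 1 CPM, by the same sex-centred r over 27 mice. For Cyp4a10 these were Acat1 (0.78), the mitochondrial acetoacetyl-CoA thiolase, Acot1 (0.77), a cytosolic acyl-CoA thioesterase, and Phlpp1 (0.77), a protein phosphatase. Cyp4a14 was most like Phlpp1 (0.72), Vldlr (0.69), a lipoprotein receptor, and Tram2 (0.69). Cyp4a32 was most like Acot12 (0.82), a thioesterase, Eci2 (0.80), an enoyl-CoA isomerase, and Hadhb (0.80). For Cyp4a31 the first were Nlrp12, Ttpa and Zfand5, at 0.68 each (Spearman rho 0.56, 0.68 and 0.66). Cyp4a12a was most like Mup14, Mup7 and Mup11 (0.84 to 0.85, Spearman rho 0.52 to 0.67), major urinary protein genes that are themselves near copies of each other. Cyp4a12b was most like Usp38 (0.86), Srr (0.85) and Letm1 (0.82). For the male-specific pair the females hold almost no counts, so these values rest on the males. All r given here are the largest among 12767 genes and include differences between groups. They were not tested against chance.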

How the data were processed

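Liver RNA of 29 mice is described in the labels, and read counts were used for 27 of them. Per the labels and methods, the authors used STAR with the mm10 genome for alignment, SAMtools for filtering and HTSeq for the counts per gene. The deposited counts are whole numbers without normalization. The deposited FPKM values came from Cufflinks, run by the authors. Versions, strand setting and annotation are not given in the sources used here, so antisense, overlapping and near-identical genes are uncertain. FPKM served for the 2 males without counts and as an alternative.

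Groups were taken from the labels. In R 4.3.3, edgeR 4.0.16 took only the 2 groups of a comparison, with TMM and its quasi-likelihood test. Low genes were dropped by filterByExpr (at least 10 counts, and 15 in total). The study's methods name DESeq2, which was run as an alternative (version 1.42.0). Genes with a Benjamini-Hochberg FDR under 0.05 over all genes tested were called. Standard errors were derived from the F statistic. The fit was tested on simulated data. The p-values judge a difference between group means against the spread between mice.

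The members and the gene lists were chosen with earlier results of these data known. The text names the 6 members, the other Cyp4 genes, regulators of these genes, at most 2 called genes with the smallest FDR per direction in other lists, and the 3 genes most like each member. Other called genes of lists with few calls were named after their values were seen. A gene that this rule selects is not reported here. Of 127 genes in the lists 126 were found. Coordinates, coding sequences and transcripts come from GENCODE M21 (GRCm38), in which 54673 of 55421 gene IDs were found with the same version, and were compared with Python 3.11.15 and Biopython 1.88. Promoter windows were not used, since a single member had one.

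Alternatives were RLE size factors, DESeq2, no filter, a fit of all 6 groups together, a block for the replicate number, leaving out each mouse, near copies summed and log2(FPKM + 1). The last was repeated over the mice with counts, a choice made after seeing the data. At 16485900 to 23570458 counts per mouse, intervals of ratios are exact binomial at 95% and a group with 0 counts is limited to 3 counts.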

Additional observations from a re-analysis of the deposited data

Results flagged for a closer look

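Among 30 combinations of a member and a group tested with Dixon's criterion, in which chance marks about 1 in 20, a single mouse stood apart in 2. Cyp4a12a in young vehicle male 4 was 209 CPM, with 140 CPM in the next male, a gap of 0.839 of the group's range. Cyp4a14 in old HDM201 female 1 was 223 CPM, with 506 CPM in the next female, a gap of 0.721 of the range.

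For Cyp4a14, old vehicle females were all above the mean of the young females (log2 fold change 1.06), and old vehicle males were all below the mean of the young males (log2 fold change -1.54). The difference between the sexes was not tested.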

How the results depend on the processing

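Over 532 alternative values of members' log2 fold changes, 519 kept their sign. Most of them left out 1 mouse, where 5 values moved by at least the pooled SD between mice and 271 did not. On log2(FPKM + 1) 14 values moved and 18 did not, and over the mice with counts 10 moved and 22 did not. With near copies summed 7 moved, 2 reversed and 23 did neither. The sum over near copies, nearly all reads of Cyp4a10 in females, had the opposite sign to Cyp4a32 with age in females (0.005) and between old females and males (2.12), which is no test of Cyp4a32. Counts of genes called moved as follows. With HDM201 in females DESeq2 gave 1329 genes and 8 PPARA targets, all 6 groups in one fit 208 and 2, and the replicate block 366 genes. Leaving out single mice gave 185 (without old vehicle female 2) to 956 (without old vehicle female 3) genes and 0 to 5 targets. With HDM201 in males DESeq2 gave 171 genes and 1 target, no filter 22 and 1, the 6-group fit 6 genes, and left-out mice 0 to 13 genes and 0 targets. With age in females the 6-group fit gave 6 targets, and left-out mice 3502 to 4494 genes and 9 to 12 targets. With age in males DESeq2 gave 1309 genes and 4 targets, no filter 968 and 4, the 6-group fit 2007 and 5, the replicate block 29 and 0, and left-out mice 144 (without old vehicle male 4) to 579 genes and 0 to 2 targets. Between young females and males DESeq2 gave 5 targets, no filter 7, the 6-group fit 2483 genes and 6 targets, the replicate block 858 genes, and left-out mice 764 (without young male 4) to 1864 genes and 2 to 8 targets (8 without young male 1). Between old females and males the replicate block gave 742 genes and 9 targets, and left-out mice 1490 (without old vehicle female 4) to 2505 genes and 8 to 14 targets. The causes were not tested.

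Mice with the same replicate number did not vary together in every pair (correlations of deviations from -0.229 to 0.228). Pairs with different numbers were not compared, so whether a number marks a shared condition was not tested. Cyp4a31 rests on few counts, and the depth of FPKM values is unknown.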
